A study of Drosophila melanogaster with 12 samples.

Results

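Odorant-binding proteins and chemoreceptors were followed in the heads of Drosophila melanogaster over 1 day of a temperature cycle and 1 day at constant temperature. The genes were chosen by name: every probe set of the array annotated with a single symbol of the form Obp, Or or Gr followed by a number, together with lush and Orco. This gave 118 probe sets for 117 genes, out of 10844 genes with a single symbol, and the probe set with the higher mean was used for Or46a, the 1 gene with 2 of them. The 117 genes comprised 36 odorant-binding proteins (of 52 in the RefSeq annotation), 53 odorant receptors (of 60) and 28 gustatory receptors (of 60).

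Odorant-binding proteins are small secreted proteins that fill the lymph around chemosensory neurons and bind odorants and other lipophilic molecules. Odorant receptors form channels with the co-receptor Orco in the neurons of the antenna and maxillary palp, whereas gustatory receptors serve taste, carbon dioxide and, in some neurons, warmth. Several odorant-binding proteins are also made outside the sense organs, in the fat body and elsewhere, so that a head sample holds more than one source of their RNA.

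All flies were adult y w flies, a strain with mutations in yellow and white and an intact clock, raised and kept in constant darkness. The conditions were CA (cold/ambient), a cycle of 12 h at 18 °C (cryophase) and 12 h at 25 °C (thermophase), sampled on the last of 4 days in the cycle following eclosion, and AA (ambient/ambient), the next day at a constant 25 °C. Heads were broken off frozen flies and collected on sieves at hours 2, 6, 10, 14, 18 and 22 of each day, and 1 array was hybridised per time point. The 12 arrays fell into 4 groups of 3: CA thermophase (hours 14, 18 and 22), CA cryophase (hours 2, 6 and 10), and the subjective thermophase and subjective cryophase of AA at the same hours. The 3 arrays of a group came from different hours, so their spread holds both time of day and sampling. CA always preceded AA, so condition and day cannot be told apart, and fewer cells of a type cannot be told apart from less RNA per cell.

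Values were log2 RMA signals, whose medians over all probe sets lay between 4.35 and 4.39 on the 12 arrays. A probe set passed the filter when more than 6 of its 12 values exceeded 2.93, the 20th percentile of all values; 11137 of 13966 probe sets did (79.7%). Samples also differed in the measures below, which with 1 array per time point cannot be told apart from the time point itself. A score of gut and male reproductive transcripts, which mark tissue from the rest of the body (28 and 14 genes that passed), ranged about its mean from -0.45 to 0.94 in CA thermophase, from -0.55 to 0.45 in CA cryophase, from 0.05 to 0.52 in the AA subjective thermophase and from -0.60 to -0.05 in the AA subjective cryophase. The 3′ minus 5′ difference between the control probe sets for eIF-4a is larger where less labelled RNA reached toward the 5′ end. It was highest at CA22 (3.23) and AA22 (3.08) and lowest at AA2 (0.956).

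Of the 117 chemosensory genes 70 passed the filter: 26 of 36 odorant-binding proteins, 29 of 53 odorant receptors and 15 of 28 gustatory receptors. The levels below refer each to its own probe set and are not compared between genes. Several classic proteins of the antenna did not pass. The signal of lush, which carries the pheromone vaccenyl acetate to its receptor neurons, ran from 2.04 to 2.51. The antennal genes Obp69a (1.74 to 2.20), Obp84a (1.87 to 2.11) and Obp59a, which is needed for sensing humidity (2.48 to 2.99), were likewise too low to be tested. So was Or92a, a receptor of the antenna for vinegar odours, at 1.78 to 2.19. Obp83a had no probe set of its own among the genes used here. Among antennal genes that passed, Orco lay between 3.61 and 4.01, Obp83b between 3.40 and 3.71, Obp19a between 3.17 and 3.77 and Obp28a between 5.42 and 5.83. Obp19d (10.24 to 10.66) and Obp56d (10.53 to 11.27), also listed as antennal members, gave strong signals. Of the antennal markers outside the families, a10 (3.92 to 4.15), Snmp1 (3.53 to 3.82) and Ir25a (4.38 to 4.73) passed, while a5 did not. Changes in the 47 genes below the filter were not tested.

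The odorant-binding proteins varied more from array to array than the receptors. The difference between the highest and the lowest array had a median of 0.51 (log2) over the 26 odorant-binding proteins, 0.36 over the 29 odorant receptors and 0.35 over the 15 gustatory receptors, beside 0.44 over all probe sets tested. It exceeded 0.5 in 13 of the 26 odorant-binding proteins, 1 of the 29 odorant receptors and 1 of the 15 gustatory receptors, and in 38.3% of all probe sets. It exceeded 1 in 5 odorant-binding proteins (19.2%), no receptor and 6.11% of all probe sets. These 5 were Obp99a (1.64), Obp57c (1.28), Obp56a (1.17), Obp56e (1.16) and Obp56g (1.13). The widest receptor was Or63a, an odorant receptor, with 0.79. The families also differed in the signal of their probe sets, whose part in these ranges was not tested. No receptor had a mean above 6.53 (Gr8a), whereas the means of Obp99a, Obp56e and Obp56g were 8.09, 8.81 and 8.53. Among odorant-binding proteins of low signal, the range was 0.21 for Obp93a (mean 3.44), 0.22 for Obp85a (3.23) and 0.60 for Obp19a (3.37).

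**Figure D1:**
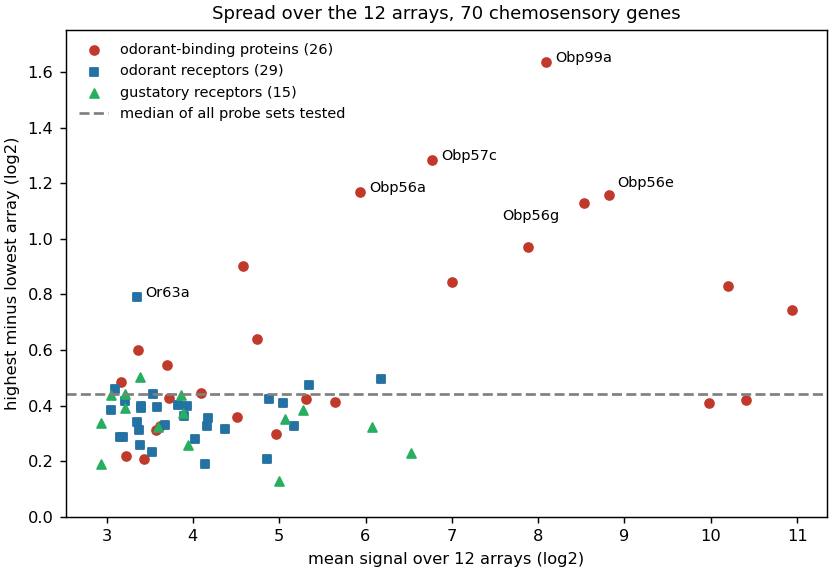
Highest minus lowest of the 12 arrays (y axis, log2) against the mean signal of the same probe set (x axis, log2) for the 70 chemosensory genes that passed the filter, with symbols by family and a dashed line at the median of all probe sets tested. Obp99a had the widest range (1.64), and most receptors lay below the dashed line at 0.44.

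Among the probe sets with strong signal, array-to-array stability and variation were both found. Obp19d, made in antennal and other sensilla, ran from 10.24 to 10.66 (mean 10.41) and Obp44a from 9.76 to 10.16 (mean 9.98), a range of about 0.4 each. Obp56d ranged from 10.53 to 11.27 (mean 10.94) and Obp99c from 9.83 to 10.66 (mean 10.20). Obp56e, with 8.15 to 9.30, and Obp56g, with 7.87 to 9.002, had their 3 lowest values at CA18, AA2 and AA18.

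The first comparison asked whether the thermophase of the temperature cycle differed from the cryophase. No chemosensory gene passed a limma adjusted p of 0.05 (0 of 70, background 0.00898% of all probe sets, which is 1 probe set). At an unadjusted p under 0.05, 4 odorant-binding proteins were lower in the thermophase and none higher, and no receptor was in either set; the background was 2.37% lower and 1.5% higher. The 4 were Obp99b, Obp56a, Obp8a and Obp56h. Over the 26 odorant-binding proteins the median difference was -0.10 (9 positive, 17 negative), beside 0.00 over the 44 receptors (22 positive, 22 negative) and 0.00 over all probe sets.

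Obp99b, also known from sex-biased expression in the fat body of the head, had 6.88, 6.68 and 6.91 at hours 14, 18 and 22 of the CA thermophase, against 7.23, 7.26 and 7.52 at hours 2, 6 and 10 of the cryophase. The ranges were separate. The difference was -0.51 (SE 0.14, a 0.70-fold level, limma adjusted p = 0.995). Obp56a had 5.59, 5.22 and 6.02 in the thermophase, against 6.09, 6.03 and 6.13 in the cryophase, where the 3 arrays lay within a narrow span. Its difference was -0.47 (SE 0.19, adjusted p = 0.995). Obp56h, which takes part in male courtship, stood at -0.39 (SE 0.17), with overlapping groups, Obp8a at -0.24 (SE 0.11) with separate groups and Obp56e at -0.53 (SE 0.26), also separate, all at the same limma adjusted p of 0.995. The smallest adjusted p among the receptors was the same 0.995, and receptor differences ran only from -0.24 to 0.15.

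The count of 4 became 1 without CA14, 2 without CA2, CA10, CA18 or AA6 and 6 without CA22. The share of all probe sets was not counted under these alternatives. The changed counts are therefore not a result about the chemosensory genes, here or in the comparisons below. The median of the odorant-binding proteins was -0.033 without CA14, -0.041 without CA18 and -0.055 without CA2. With the eIF-4a difference as a covariate it was -0.051, Obp99b then stood at -0.46 and Obp56a at -0.32. With limma array weights, in which CA14 counted with 6.12 and the other arrays with at most 1.69, Obp99b passed (-0.49, adjusted p = 0.044), as 82 probe sets did in all.

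**Figure D2:**
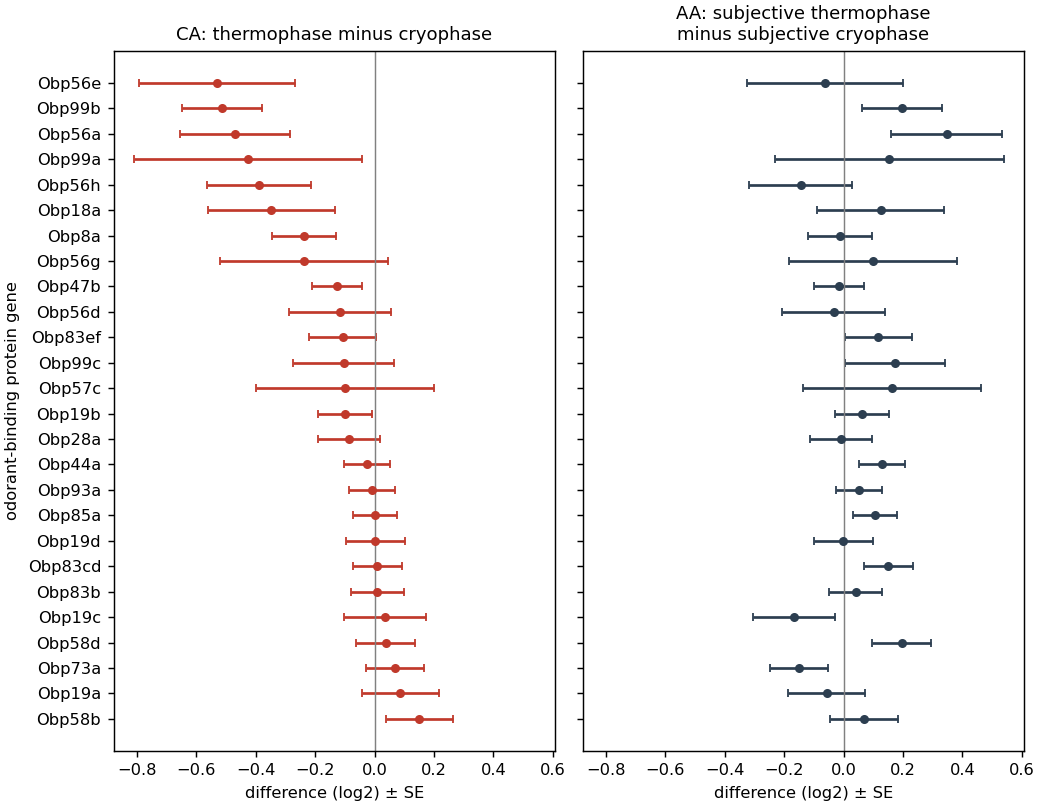
Differences (log2, x axis) with standard errors for the 26 odorant-binding proteins (rows), in CA thermophase minus cryophase (left) and in AA subjective thermophase minus subjective cryophase (right), ordered by the difference in CA. In CA the points at the top lie left of 0, down to -0.53 for Obp56e, whereas in AA 16 of the 26 lie right of 0.

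In AA the same hours were compared at a constant 25 °C. Again 0 of the 70 genes passed (background 0%), and 1 odorant receptor, Or2a, was higher at an unadjusted p under 0.05, with no chemosensory gene lower (background 1.86% higher and 3.53% lower). The median difference was 0.07 over the odorant-binding proteins (16 positive, 10 negative) and 0.05 over the receptors (35 positive, 9 negative), beside 0.01 over all probe sets. Several, but not all, marker lists also had separate ranges in the 2 AA phases, and their part in these medians was not tested. Scores in the subjective thermophase, against the subjective cryophase, were -0.18 to -0.06 against -0.003 to 0.17 for photoreceptors, -0.30 to 0.02 against 0.08 to 0.16 for neurons and -0.16 to -0.07 against 0.017 to 0.018 for muscle. They were -0.02 to 0.10 against -0.14 to -0.03 for the head fat body and 0.11 to 0.32 against -0.43 to -0.25 for gut. The ranges overlapped for male reproductive genes (-0.02 to 0.71 against -0.77 to 0.16). They also overlapped for olfactory genes outside the families (0.01 to 0.04 against -0.05 to 0.03). Or2a had 4.28, 4.24 and 4.25 in the subjective thermophase, against 4.17, 3.97 and 4.05 in the subjective cryophase, a difference of 0.19 (SE 0.088, limma adjusted p = 0.883). Obp56a, lower in the thermophase of CA, stood at 0.35 here (SE 0.19), with 6.38, 5.92 and 6.31 in the subjective thermophase, against 5.63, 6.11 and 5.84 in the subjective cryophase, so that the groups overlapped. Its difference in AA was 0.11 with the eIF-4a difference as a covariate and 0.12 with the gut and male score as a covariate. Obp58d (0.20, SE 0.099), the gustatory receptor Gr98d (0.16, SE 0.085) and Obp83cd (0.15, SE 0.083) completed the 5 with the smallest p, at the same adjusted p of 0.883. Obp99b stood at 0.20 (SE 0.14) in AA. The count of 1 became 6 without AA2 or without AA18, 2 without CA22 or AA22, and 0 without AA10, AA14 or any CA cryophase array. The matching shares of all probe sets were not counted.

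The next comparison tested the phase change in CA against that in AA directly. No chemosensory gene passed (0 of 70, background 0%), and at an unadjusted p under 0.05 there were 2 odorant-binding proteins, both on the lower side (background 1.33% lower and 1.86% higher). The interaction was -0.71 for Obp99b (SE 0.19) and -0.82 for Obp56a (SE 0.26), both with an adjusted p of 0.997 by limma. The differences of 21 of the 26 odorant-binding proteins were negative, with a median of -0.16, and those of 31 of the 44 receptors, with a median of -0.05, beside -0.01 over all probe sets. Gr28b (-0.19, SE 0.11), Or63a (-0.33, SE 0.21) and Obp73a (0.22, SE 0.14) had the next smallest p. The eIF-4a difference as a covariate left Obp99b at -0.57 and brought Obp56a to -0.44. The count of 2 was 7 without AA18 and 4 without CA22, with the share of all probe sets not counted.

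The day of the temperature cycle was then compared with the constant day phase by phase. In the cryophase, 18 °C in CA against 25 °C in AA, 0 of 70 genes passed (background 0%), and 2 odorant-binding proteins were higher in CA at an unadjusted p under 0.05, with none lower (background 2.45% higher and 3.93% lower). Obp99b had 7.23, 7.26 and 7.52 in the CA cryophase, against 6.76, 6.81 and 6.92 in the AA subjective cryophase, a difference of 0.51 (SE 0.14, limma adjusted p = 0.721). Obp44a, a lipid-binding protein known from glia of the brain, had 10.09, 9.997 and 10.16 in the CA cryophase, against 9.80, 9.76 and 9.94 in the AA subjective cryophase, a difference of 0.25 (SE 0.078, limma adjusted p = 0.721). Both sets of groups were separate. With the hour of day as a block the adjusted p of Obp99b was 0.0599 and that of Obp44a was 0.132, over all probe sets. Gr21a, 1 of the pair of receptors for carbon dioxide, stood at -0.17 (SE 0.086), Obp73a at -0.17 (SE 0.099) and Or63a at 0.25 (SE 0.15). With quantile normalization the difference of Obp44a was 0.14. The count of 2 was 4 without AA6, and 1 with quantile normalization or with trend and robust variance, with the share of all probe sets not counted. The score of fat body genes of the head (11 of 14 listed genes were measured and passed) ran from -0.02 to 0.15 in the CA cryophase and from -0.14 to -0.03 in the AA subjective cryophase, which are separate ranges too, and its part in Obp99b was not tested.

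The CA thermophase was also compared with the AA subjective thermophase, both at 25 °C. No chemosensory gene passed (0 of 70, background 0%), and Obp56a and Gr28b were lower in CA at an unadjusted p under 0.05, with none higher (background 1.4% lower and 1.62% higher). Gr28b, 1 isoform of which serves as a warmth sensor of the antenna, had 3.02, 3.12 and 3.06 in the CA thermophase, against 3.29, 3.27 and 3.40 in the AA subjective thermophase. The groups were separate, and the difference was -0.26 (SE 0.078, limma adjusted p = 0.999), at a signal just above the filter. Obp56a had 5.59, 5.22 and 6.02 in the CA thermophase, against 6.38, 5.92 and 6.31 in the AA subjective thermophase, with a difference of -0.59 (SE 0.19) and overlapping groups. The odorant receptors Or45b (-0.21, SE 0.10), Or69a (-0.18, SE 0.093) and Or22c (-0.20, SE 0.10) followed. All 15 gustatory receptors and 26 of 29 odorant receptors were negative here, with medians of -0.07 and -0.09, and 17 of 26 odorant-binding proteins, with a median of -0.09. Over all probe sets 6059 of 11137 were negative, with a median of -0.01, and of 22 other olfactory genes that passed the filter 15 were negative, with a median of -0.04. The count of 2 was 7 with the hour of day as a block, 6 without CA18 and 4 without AA2 or AA22. Shares of all probe sets under these alternatives were not counted.

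**Figure D3:**
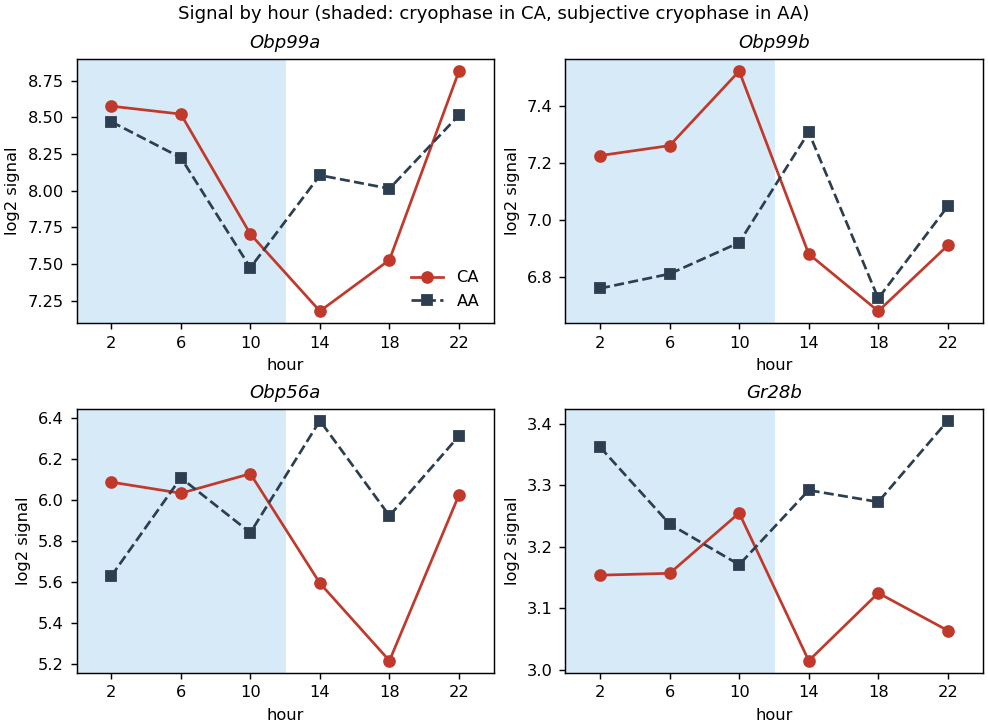
Log2 signal (y axis) at the 6 hours of each day (x axis) for Obp99a, Obp99b, Obp56a and Gr28b, with CA as red circles and AA as dark squares and the cryophase or subjective cryophase shaded. Obp99a was lowest at hour 14 in CA (7.18) and at hour 10 in AA (7.48), and high at hours 22 and 2 in both days, whereas Obp99b was highest at CA10 (7.52).

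A daily rhythm was sought over both days with F24, the part of a gene's variance about the daily means that a 24-h Fourier term takes up, against 10000 random orders of the hours within each day. No chemosensory gene passed an adjusted p of 0.05 (0 of 70, background 0%), and 7 had an unadjusted permutation p under 0.05: 2 odorant-binding proteins, 3 odorant receptors and 2 gustatory receptors, beside 7.84% of all probe sets. The 7 of 70 genes are 10% of the list, close to that background. The moderated F test of the harmonic regression also called 0 of the 70.

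Obp99a had the widest daily swing. Its signal was 8.58, 8.52, 7.70, 7.18, 7.53 and 8.82 at hours 2, 6, 10, 14, 18 and 22 of CA, against 8.47, 8.22, 7.48, 8.10, 8.01 and 8.52 at the same hours of AA. In both days the values at hours 22, 2 and 6 were the 3 highest, while the trough lay at hour 14 in CA and at hour 10 in AA. F24 was 0.71 (permutation p = 0.0094, adjusted p = 0.498), and a harmonic regression placed the peak at hour 1.1 (SE 0.73) with a peak-to-trough difference of 1.18 (SE 0.23). Since the swing cuts across both phases, the thermophase and cryophase means of Obp99a differed by -0.43 in CA (SE 0.38) and by 0.15 in AA (SE 0.38). The study lists Obp99a, Obp56h and Or92a under odorant binding, in a table of transcripts it selected as temperature-driven, temperature-entrained circadian or both. That selection combined several time courses of wild-type and arrhythmic mutant flies. Its permutation p limits applied to each probe set, whereas the p-values here were adjusted over all probe sets. That list drew partly on the arrays used here, so the swing of Obp99a is not independent of it, and Or92a was below the filter.

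The highest F24 of all 70 genes belonged to Gr33a, a co-receptor of bitter taste, with 0.86 (permutation p = 0.0012, adjusted p = 0.378), but its swing was 0.26 (SE 0.066) at a signal of 2.78 to 3.11, at the filter itself. Its F24 was 0.53 when the gut and male score was taken out. Gr21a had 0.62, with a swing of 0.18 and a peak at hour 22.7 (SE 1.5). Or46a (F24 0.57), Or59c (0.56) and Gr47a (0.49) followed, with swings of 0.23, 0.22 and 0.20. When each day was taken alone, F24 of Obp99a was 0.90 in CA and 0.70 in AA, and no gene passed adjustment in either, where 6 time points allow an exact permutation p no lower than 0.0167.

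Some of the odorant-binding proteins followed the eIF-4a control probe sets. The eIF-4a difference was alike in CA and AA at hours 6 (2.44 and 2.40), 18 (1.55 and 1.48) and 22 (3.23 and 3.08). It was unlike at hours 2 (2.74 and 0.956), 10 (2.73 and 1.54) and 14 (1.85 and 2.39). How far the relations below reflect time of day was not tested. The 3 arrays within a group also differ in hour. The signal of 10 of the 70 genes was related to the 3′ minus 5′ difference at a limma adjusted p under 0.05, which is no more than among all probe sets: 7 genes were positive (10%, background 11%) and 3 negative (4.29%, background 13.9%). Obp56g, Obp18a, Obp56d, Obp57c, Obp56e, Obp56a and Obp56h rose with it, and Obp19c, Obp73a and the odorant receptor Or85f fell with it. All 7 positive genes were odorant-binding proteins, 26.9% of the 26, and no receptor was positive. No receptor had a mean signal above 6.53 (Gr8a), and the part of signal level in this split was not tested. The slope was 0.49 for Obp56g (log2 signal per log2 unit of the difference, SE 0.064, adjusted p = 0.000156), 0.44 for Obp56e (SE 0.089, adjusted p = 0.00314), 0.43 for Obp57c (SE 0.088, adjusted p = 0.00311), 0.35 for Obp18a (SE 0.065, adjusted p = 0.00183), 0.32 for Obp56a (SE 0.090, adjusted p = 0.0188), 0.29 for Obp56d (SE 0.056, adjusted p = 0.00210) and 0.23 for Obp56h (SE 0.082, adjusted p = 0.0475), all by limma. The negative slopes were -0.20 for Obp19c (adjusted p = 0.00521), -0.15 for Obp73a (0.00784) and -0.13 for Or85f (0.0332).

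**Figure D4:**
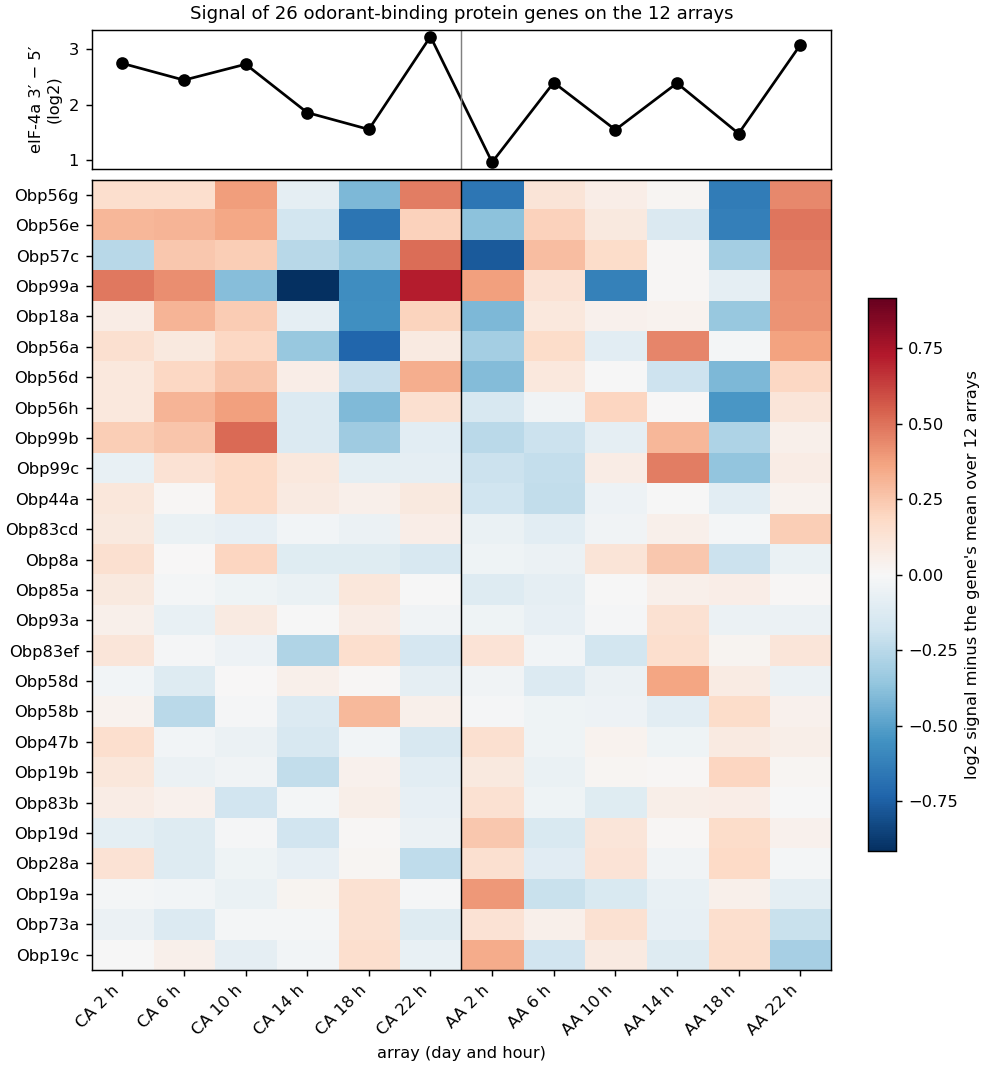
Log2 signal minus the gene's own mean (colour) for the 26 odorant-binding proteins (rows) on the 12 arrays (columns, by day and hour), ordered by their slope on the eIF-4a 3′ minus 5′ difference, which is plotted above. The upper rows are blue at CA18, AA2 and AA18 and red at CA22 and AA22, where the eIF-4a difference was 1.55, 0.956 and 1.48, against 3.23 and 3.08. AA10 went against this order, with an eIF-4a difference of 1.54 and signals above the gene's mean in Obp56g (8.59), Obp56e (8.90) and Obp57c (6.94).

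Obp56g had 8.69, 8.69, 8.91, 8.45, 8.12 and 9.002 at hours 2, 6, 10, 14, 18 and 22 of CA, against 7.87, 8.65, 8.59, 8.55, 7.89 and 8.97 in AA. Obp57c had 6.52, 7.02, 6.997, 6.52, 6.43 and 7.29 in CA, against 6.003, 7.06, 6.94, 6.78, 6.46 and 7.25 in AA. Both were high at hour 22 of both days. Obp18a had 7.95, 8.19, 8.11, 7.80, 7.32 and 8.09 in CA, against 7.47, 7.97, 7.92, 7.91, 7.53 and 8.29 in AA, with low values again at CA18, AA2 and AA18.

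CA18, AA2 and AA18 were the 3 lowest arrays in 7 of 26 odorant-binding proteins (Obp18a, Obp56d, Obp56e, Obp56g, Obp56h, Obp57c and Obp99b), in 0 of 29 odorant receptors and 0 of 15 gustatory receptors, beside 8.12% of all probe sets. These 3 arrays were picked after the values had been seen. When the 4 group means were kept in the model, so that the slope was taken within groups, the 7 odorant-binding proteins remained positive at an adjusted p under 0.05 (Obp56g 0.55, SE 0.071), and Obp73a no longer passed (limma adjusted p = 0.0556), while Or22c (-0.14) and Gr64f (-0.17), a co-receptor of sugar taste, joined Or85f and Obp19c among the negative ones. The background within groups was 9.45% positive and 10.4% negative, beside 7 and 4 of the 70 genes. Leaving out 1 array gave 8 to 12 genes. Obp56h was the least stable, with a limma adjusted p of 0.0525 to 0.121 when any array other than AA10 was left out. Or85f was lost without CA10, CA18, CA22, AA18 or AA22 (adjusted p = 0.0557 to 0.10), and Obp56a (0.0535) and Obp19c (0.0505) without AA2.

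**Figure D5:**
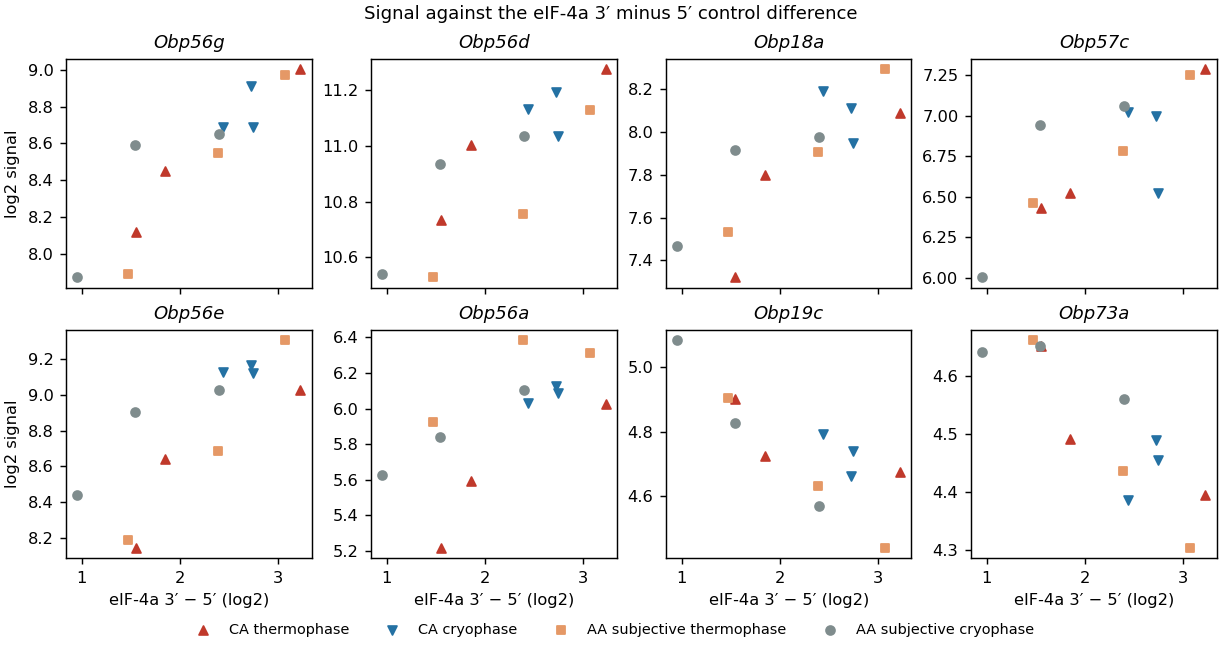
Log2 signal (y axes) of 8 odorant-binding protein genes on the 12 arrays against the eIF-4a 3′ minus 5′ difference (x axis, log2), with symbols by group. Obp56g, Obp56d, Obp18a, Obp57c, Obp56e and Obp56a had positive slopes, and Obp19c and Obp73a negative ones. AA2, at the lowest eIF-4a difference (0.956), had the lowest signal in Obp56g and Obp57c. The lowest array was CA18 in Obp18a, Obp56e and Obp56a and AA18 in Obp56d. The CA cryophase arrays lay close together, at 2.44 to 2.74.

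In the genome Obp56a, Obp56d and Obp56e belong to a run of 6 neighbouring odorant-binding protein genes, Obp56a to Obp56f, and Obp56g and Obp56h are neighbours of each other. Obp57c lies in a run with Obp57b and Obp57a, and Obp18a has no neighbour of the family. Of the 6 genes of the run, 4 had a probe set of their own and 3 passed the filter, all 3 with positive slopes. Obp99b and Obp99c lie in 1 run, and neither passed: the slope was 0.22 for Obp99b (SE 0.084, limma adjusted p = 0.0662) and 0.11 for Obp99c (SE 0.079, limma adjusted p = 0.355). Obp99c had 10.12, 10.33, 10.37, 10.29, 10.11 and 10.11 in CA, against 9.999, 9.98, 10.26, 10.66, 9.83 and 10.26 in AA, and like Obp99b was high at CA10 and AA14 and low at AA18. Obp19c and its neighbour Obp19d both had negative slopes, and that of Obp19d (-0.10, SE 0.046) did not pass (limma adjusted p = 0.121). Both were highest at AA2. Whether neighbours differed in slope, and how far related sequences share probes, was not tested.

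The gut and male score was related to 0 of the 70 genes at a limma adjusted p under 0.05, with a background of 0.988% positive and 0.0449% negative, and positively to 1 gene, Obp83cd, at an unadjusted p under 0.05 (background 4.18% positive and 6.11% negative). The mean of the antennal markers a10, Snmp1 and Ir25a was likewise related to 0 of the 70, with 0% of all probe sets in either direction. At an unadjusted p under 0.05, where the background was 7.29% positive and 5.89% negative, its relation was positive for 7 of 70 genes (10%), among them the co-receptor gene Orco (slope 1.28) and Obp83ef (1.39), and negative for 5, which were Obp18a (-2.69), Obp56d (-2.46), Obp56e (-2.97), Obp56g (-3.28) and Obp57c (-3.56), all with a limma adjusted p of 0.370 or more. The antennal score ran only from -0.105 (CA22) to 0.102 (AA14), so a slope per log2 unit reaches far beyond the data. The 5 negative genes are among the 7 that rose with the eIF-4a difference. The antennal score was high at AA2 (0.101) and CA18 (0.095), where that difference was low. It was low at CA22 and AA22 (-0.078), where the difference was high. Other arrays, such as AA14 and CA14 (-0.072), went against this order. How far the 2 relations are separate was not tested. The median slope on the antennal markers was 0.54 over the odorant receptors, 0.36 over the gustatory receptors and 0.33 over the odorant-binding proteins, beside 0.21 over all probe sets.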

How the data were processed

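RNA of sieved heads was labelled (25 µg) and hybridised to Affymetrix Drosophila arrays, 1 per time point. The authors deposited log2 values made with RMA (background correction, quantile normalization and a summary per probe set; version not given in the sources used here), with 14010 probe sets, 44 of them controls. Symbols came from the platform annotation, and 4 probe sets with several symbols were left out. Limma 3.58.1 (R 4.3.3) was fitted to 4 group means over the 11137 probe sets that passed the filter, with Benjamini-Hochberg adjustment over all of them. F24 was compared with 10000 permutations. The limma phase comparison and F24 were tested on simulated data, and the score regressions and the alternatives were not. No replicate culture exists for any time point, so p-values measure the spread between hours of a group, and the number of arrays limits precision. Genes named were those past a threshold, the 5 with the smallest p in each comparison, the 6 with the highest F24 or mean signal, and antennal members listed by name. The genes and lists were chosen with earlier results of these data known. The alternatives were other filters, normalizations, variance models and covariates, each array left out, and the hour as a block. No sequences were used here.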

Additional observations from a re-analysis of the deposited data

How the results depend on the processing

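Arrays of 1 time point each, several antennal genes below the filter and 3 arrays a group limited what could be seen: the median standard error of a difference was 0.11 (log2). The number of chemosensory genes past an adjusted p of 0.05 was 0 in all 5 comparisons under every alternative run, except 1 (Obp99b) with array weights in CA thermophase minus cryophase, where all probe sets past it were 82 against 1. The count for periodicity was 0 under all 7 alternatives. In CA alone and AA alone the exact permutation p could not fall below 0.0167. A gene could hardly pass adjustment there, so those 2 counts of 0 carry little weight. Taking out the eIF-4a difference was chosen after seeing the data. It gave 10 genes at an unadjusted permutation p under 0.05, against 7, each of 70. That unadjusted count was 0 in CA alone and 11 of 117 without a filter. The counts for the gut and male score and for the antennal score were 0 throughout, and no named difference or slope changed sign. The median over odorant-binding proteins in CA thermophase minus cryophase was -0.051 with the eIF-4a covariate and ran from -0.10 to -0.033 with 1 array left out. In the difference between the days' phase changes it was -0.24 with the stricter filter, -0.105 with the eIF-4a covariate and -0.19 to -0.11 with 1 array left out. In CA cryophase minus AA subjective cryophase it was 0.20 with the stricter filter and 0.0305 without a filter, and in the AA phases it ran from 0.019 to 0.0996 with 1 array left out. In CA thermophase minus AA subjective thermophase it ran from -0.13 to -0.035. Over receptors the range with 1 array left out was 0.026 to 0.116 in the AA phases and -0.12 to -0.014 in the difference between phase changes. Genes at an unadjusted p under 0.05 numbered 15 with array weights against 4 in CA thermophase minus cryophase (1 to 6 with 1 array left out), 6 against 1 in the AA phases (10 with the eIF-4a covariate), 9 against 2 in the difference between phase changes (7 with the hour as a block), 4 against 2 in the cryophases (10 with the hour as a block) and 16 against 2 in the thermophases (7 with the hour as a block). In the cryophases it was 1 with quantile normalization or with trend and robust variance. The share of all probe sets at an unadjusted p under 0.05 was not counted under the alternatives, here or above. The changed counts are therefore not a result about the chemosensory genes. The cause of the changes was not tested. No paired analysis by replicate number was possible because the labels give none.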

Other observations

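The other olfactory genes fixed as a list (52 listed, 36 matched and 22 past the filter, among them a10, Snmp1, Ir25a and the ionotropic co-receptor gene Ir8a) gave 0 past a limma adjusted p of 0.05 in any of the 5 comparisons, with 0 to 3 at an unadjusted p under 0.05. Their median difference was -0.01 in CA thermophase minus cryophase and 0.04 in the AA phases, beside 0.00 and 0.01 over all probe sets. In CA thermophase minus AA subjective thermophase it was -0.04, with 15 of 22 negative. Ir8a lay between 4.36 and 4.85 on the 12 arrays.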
